A study of Mus musculus with 6 samples.

Results

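The genes described are 5 genes of membrane traffic, Ap1s3, Rab17, Rabep2, Pam and Npc1. They were taken by symbol from the authors' deposited table, which holds only probe sets with an unadjusted p-value under 0.05 for the comparison of Gfi1 genotypes. The 5 genes have 6 of its filled probe sets (2 for Rab17), out of 45101 on the array, and are 5 of the 1512 genes that this table names. Each member was therefore chosen by its difference between the same arrays described here, so its values are given without a test of that difference. Signals come from both ways the authors summarised the probes of a set: RMA, on a log2 scale and held for listed probe sets, and MAS5, on a linear scale and held for every probe set.

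RNA came from whole bone marrow of leukemic mice, after lysis of red cells, with 1 Affymetrix whole-genome mouse array for each animal. All 6 adult mice carried a Nup98/HoxD13 transgene under the control of Vav-1, a promoter of blood-forming cells, and were stated to be of the same age. As background, this fusion oncoprotein causes myelodysplasia in mice, and part of the animals go on to leukemia. In 3 mice the Gfi1 genotype was Gfi1 KI and in 3 it was Gfi1 KD. From background knowledge, not from the labels, KI is the human GFI1 coding sequence at the mouse locus and KD a version of it with reduced expression. Gfi1 is a transcriptional repressor of myeloid development. Its own level was not analysed here, because no named probe set represents it, so the genotype labels were not checked against it. The marrow is a mixture of cells, in which fewer cells of a type and less RNA per cell cannot be told apart.

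Proteins and lipids move between the trans-Golgi network, endosomes, lysosomes and the cell surface in vesicles. Adaptor complexes select cargo and recruit clathrin, Rab GTPases give each compartment its identity by binding effectors when loaded with GTP, and the lysosome returns cholesterol from degraded lipoproteins to the cell. Ap1s3 encodes the sigma 1C subunit of the adaptor AP-1, which sorts cargo between the trans-Golgi network and endosomes. Rab17 is a small GTPase known mainly from polarised epithelial cells, where it acts in transcytosis through recycling endosomes. Rabep2 is a rabaptin, an effector of Rab5 on early endosomes. Pam amidates the C terminus of peptides in secretory granules and is a membrane cargo of the endosomal pathway. Npc1 is the membrane protein of late endosomes and lysosomes that exports cholesterol, in cooperation with the soluble protein Npc2. In the annotation of the deposited table, 3 of the 5 members (Rab17, Rabep2 and Npc1) carry the term endosome and 2 (Rab17 and Rabep2) the term early endosome.

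On chromosome 1 of build 38 lie 3 members: Ap1s3 at 79606869 to 79672018, Rab17 at 90958133 to 90969673 and Pam at 97821091 to 98095853, all on the minus strand. Rabep2 is on the plus strand of chromosome 7 (126428423 to 126445907). The target of the Ap1s3 probe set aligned at 79606599 to 79608010, which is the 3' end of the gene and 270 bases beyond the RefSeq end, and 10 probes matched the RefSeq transcript. For each of the other 5 probe sets 11 probes matched it. The 2 Rab17 probe sets aligned to the same interval, 90958134 to 90967667, within the gene. In the annotation, the first of them, with the lower-numbered ID, had 0 probes that also matched other transcripts, and the second had up to 7 such probes, for either of 2 transcripts. Such partial matches were also recorded for Pam (up to 5 probes), Rabep2 (3), Ap1s3 (1) and Npc1 (1). Exon and UTR positions were not used here.

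The RefSeq table of promoter windows (GRCm38.p6, 250 bases before to 50 after a start site) held windows for 4 of the 5 members. Gfi1 binds DNA at a core of AATC, so the windows were searched for AATC on both strands, which reads as GATT on the other strand. This 4-letter core is common: 73.1% of all 32851 windows held it. The windows shown are 3, those of Ap1s3 and Rab17, which had the largest differences, and that of Rabep2, which held the most matches. They are chr1:79671923-79672222 (minus strand), chr1:90967618-90967917 (minus strand) and chr7:126428517-126428816 (plus strand). Each is written 5' to 3', with the matches in capitals.
Ap1s3: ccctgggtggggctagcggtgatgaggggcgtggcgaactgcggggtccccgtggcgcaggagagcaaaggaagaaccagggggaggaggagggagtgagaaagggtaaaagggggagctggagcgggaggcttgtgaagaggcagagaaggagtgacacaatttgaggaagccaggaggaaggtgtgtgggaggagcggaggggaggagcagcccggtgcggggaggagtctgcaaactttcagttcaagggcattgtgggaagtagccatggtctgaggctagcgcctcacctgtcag
Rab17: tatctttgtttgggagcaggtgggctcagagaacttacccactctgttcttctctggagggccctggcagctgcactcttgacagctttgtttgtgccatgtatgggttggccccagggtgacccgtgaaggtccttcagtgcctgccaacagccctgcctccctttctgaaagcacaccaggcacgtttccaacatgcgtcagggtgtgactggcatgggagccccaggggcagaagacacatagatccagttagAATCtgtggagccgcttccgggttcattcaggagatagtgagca
Rabep2: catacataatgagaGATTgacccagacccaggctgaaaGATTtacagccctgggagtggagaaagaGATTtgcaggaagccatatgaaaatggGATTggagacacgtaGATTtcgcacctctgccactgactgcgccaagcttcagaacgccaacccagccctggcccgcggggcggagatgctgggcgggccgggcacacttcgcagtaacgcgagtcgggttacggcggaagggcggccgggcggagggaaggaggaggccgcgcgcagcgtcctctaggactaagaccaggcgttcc
The Ap1s3 window held 0 matches, the Rab17 window 1, just past the table's start site, and the Rabep2 window 5, all before that site and all reading GATT on the strand shown. The table's start sites are not the outer ends of the genes: the Rab17 window lies wholly inside the gene interval given above, as does the Rabep2 window with its 5 matches. Windows with 5 or more matches were 3.90% of all windows. Both Pam windows held 0. A longer stretch of the Gfi1 consensus, TAAATCAC, was in 0 of the members' windows and in 0.578% of all, and the E-box CACGTG was in 0 of them and in 7.15% of all. The windows of the members differed in base composition: GC content was 55.7% for Rab17, 60.7% for Rabep2, 62.0% for Ap1s3 and 76.3% and 77.3% for Pam, beside a median of 52.7% over all windows. A match of letters describes the window and says nothing of binding.

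Of the 6 arrays, Gfi1-KI replicate 2 stood somewhat apart. It had a median Pearson correlation of 0.905 with the other 5 arrays over log2 MAS5 signals of non-control probe sets, against 0.919 to 0.932 for the other arrays. The median MAS5 signal of an array ranged from 117.0 to 148.1, both among the Gfi1-KD arrays. The labels do not say how the animals were housed or processed together. With 1 array for each animal, differences between these 6 animals and differences in processing cannot be told apart in the spread between arrays. With 3 arrays a group, few arrays stand behind each mean. limma on the MAS5 signals used Benjamini-Hochberg adjustment over 22519 probe sets above a level filter (a mean log2 signal of 6.95 or more). It called 0 of them (0.00%) at an adjusted p under 0.05. Of the member probe sets, 5 were among those tested, and the second Rab17 probe set, below the filter, was not. At an unadjusted p under 0.05 limma counted 1217 (5.40%), of which 837 were higher in Gfi1-KD (3.72% of those tested). Leaving out 1 array moved the 1217 to 539 (Gfi1-KD replicate 3), 655 (Gfi1-KD replicate 1) or 2126 (Gfi1-KI replicate 1). The authors' analysis of variance listed 4.41% of the 45101 probe sets, 2.52% as higher in Gfi1-KD. Its smallest step-up p, adjusted for the number of probe sets, was 0.211. For each of the 6 member probe sets the step-up p was 0.911.

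Ap1s3 had the widest separation of the genotypes among the 6 probe sets. Its log2 RMA signal was 6.53, 6.50 and 6.69 on Gfi1-KI replicates 1 to 3 and 8.91, 9.65 and 9.12 on Gfi1-KD replicates 1 to 3. The lowest Gfi1-KD array lay 2.22 above the highest Gfi1-KI array, while the 3 Gfi1-KI arrays spanned little of that distance. The group means were 6.57 ± 0.10 and 9.22 ± 0.38 (SD, n = 3 each), a 6.27-fold higher signal in Gfi1-KD. In the linear MAS5 signals the same probe set read 333, 266 and 140 on the Gfi1-KI arrays and 2248, 3817 and 3512 on the Gfi1-KD arrays. The MAS5 ratio of geometric means was 13.4, so the summarization of the probes moved the size of the Ap1s3 difference by over 1.5 times. By size it was number 3 from the top among the 1135 listed probe sets with a higher RMA signal in Gfi1-KD.

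Rab17 is measured by 2 listed probe sets, and these differed in size. The first probe set had log2 RMA signals of 5.87, 6.22 and 5.34 on the Gfi1-KI arrays and 7.5, 8.09 and 8.66 on the Gfi1-KD arrays, replicates 1 to 3 in each. Its lowest Gfi1-KD value, on replicate 1, was above the highest Gfi1-KI value, on replicate 2, by 1.27. The means were 5.81 ± 0.44 and 8.08 ± 0.58, a 4.82-fold difference. The second probe set read 6.55, 6.21 and 6.17 in Gfi1-KI and 6.84, 7.18 and 7.33 in Gfi1-KD. It was 1.75-fold higher in Gfi1-KD, with group means of 6.31 ± 0.21 and 7.12 ± 0.25, and on both probe sets Gfi1-KD replicate 3 was the highest array and Gfi1-KD replicate 1 the lowest of its group.

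In the MAS5 signals 1 of the Rab17 probe sets kept the groups apart. The first read 62.4, 176 and 55.1 in Gfi1-KI and 378, 566.5 and 971 in Gfi1-KD, with no overlap. The second read 56.2, 21.6 and 21.9 in Gfi1-KI and 36.6, 200.4 and 213 in Gfi1-KD, so that Gfi1-KD replicate 1 lay below Gfi1-KI replicate 1. It is the 1 member probe set with a mean log2 signal (5.88) below the level filter of 6.95. The Gfi1-KI mean of the first (6.40) was below that level too, so no MAS5 fold is given for Rab17. The log2 MAS5 difference of the second depended on how its low signals were handled: it was 1.96 as computed, 1.02 with a constant of 64 added to each signal, and 2.79 without Gfi1-KD replicate 1.

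Rabep2, the Rab5 effector, differed little. Its log2 RMA signal was 7.77, 7.18 and 7.34 on the Gfi1-KI arrays and 7.88, 7.91 and 8.0 on the Gfi1-KD arrays. The Gfi1-KD arrays lay close together and above Gfi1-KI replicate 1 by only 0.11. The means were 7.43 ± 0.30 and 7.93 ± 0.06, a 1.41-fold difference. In the MAS5 signals the groups overlapped: Rabep2 read 631, 381 and 386 in Gfi1-KI and 667, 573 and 704 in Gfi1-KD, where replicate 2 was below Gfi1-KI replicate 1.

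Pam, the amidating enzyme, had the largest SD within a group among the RMA signals of the members. Its log2 RMA signal was 8.06, 6.84 and 8.22 on the Gfi1-KI arrays, and 9.18, 8.81 and 9.50 on the Gfi1-KD arrays. The low Gfi1-KI value was on replicate 2, the array that stood apart. The means were 7.71 ± 0.75 and 9.16 ± 0.35, a 2.75-fold higher signal in Gfi1-KD, and 2.04-fold without Gfi1-KI replicate 2. The MAS5 signals were 359, 139 and 613 in Gfi1-KI and 1330, 1008 and 1745 in Gfi1-KD, a ratio of 4.25, or 2.83 without Gfi1-KI replicate 2. All 3 Gfi1-KD arrays were above all 3 Gfi1-KI arrays on both scales.

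Npc1, the cholesterol exporter, lies on the minus strand of chromosome 18 (12189694 to 12236506). It had log2 RMA signals of 8.39, 8.37 and 8.61 in Gfi1-KI and 9.20, 8.69 and 8.88 in Gfi1-KD. The highest Gfi1-KI array and the lowest Gfi1-KD array were 0.08 apart. The means were 8.46 ± 0.13 and 8.92 ± 0.26, a 1.38-fold difference. The MAS5 signals were 702, 667 and 761 in Gfi1-KI and 1352, 1046 and 1059 in Gfi1-KD, a ratio of 1.61 with no overlap.

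**Figure D1:**
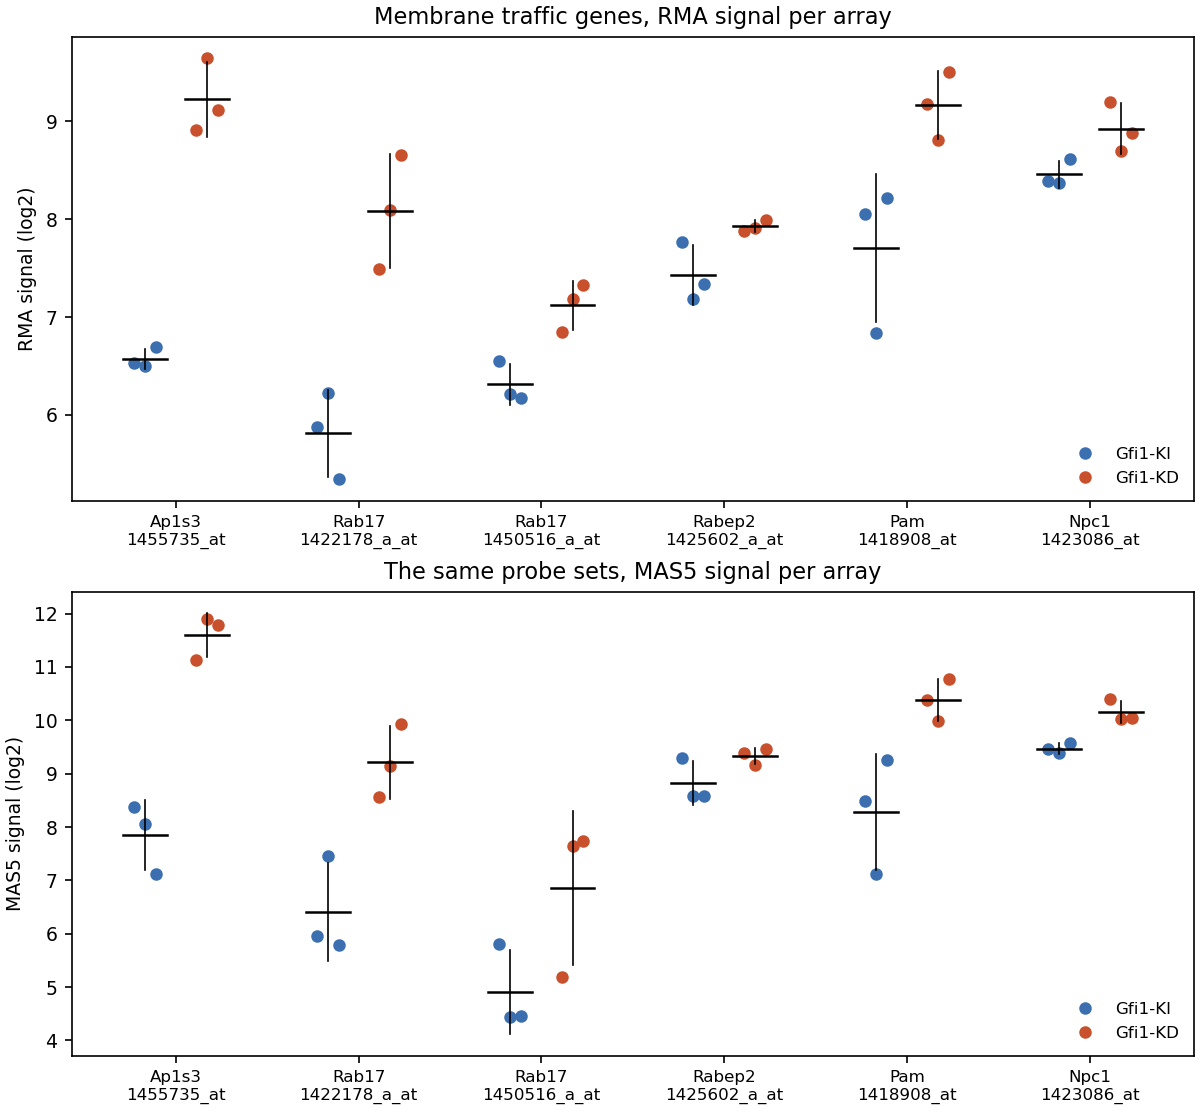
Log2 signal of the 6 member probe sets on each array (points, with the group mean as a bar and the SD as a line, n = 3 each), RMA above and MAS5 below, for Gfi1-KI (blue) and Gfi1-KD (red). In the RMA signals each Gfi1-KD group is above its Gfi1-KI group. In the MAS5 signals the second Rab17 probe set and Rabep2 overlap. Heights of different probe sets are not comparable.

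All 6 member probe sets had their 3 Gfi1-KD arrays above their 3 Gfi1-KI arrays in RMA, as had 57.0% of all listed probe sets, nearly all of the 57.1% that were higher in Gfi1-KD. A p-value under 0.05 with 3 arrays a group brings such a separation with it, so nothing is read from this count. In the MAS5 signals 4 of the 6 separated that way. The share among the 22519 unselected probe sets was 6.77%, and nothing is read from this either, since the members were selected on the same arrays. The median RMA difference of the 6 was 1.13 on the log2 scale, against 0.28 for the 1135 listed probe sets that were higher in Gfi1-KD. Rabep2 and Npc1 were just inside the selection, with p-values of 0.0491 and 0.0495 in the authors' deposited table. The largest p listed there was 0.050, and probe sets just outside have no RMA values here.

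Among arrays of 1 genotype the members did not share an order. Gfi1-KI replicate 2 was the lowest of its group for 4 of the 6 probe sets in RMA and the highest for 1. Gfi1-KD replicate 3 was the highest of its group for 4, and Gfi1-KD replicate 1 the lowest for 4. Npc1 was highest on Gfi1-KD replicate 1, and Ap1s3 on Gfi1-KD replicate 2. Leaving out each array in turn, the Ap1s3 RMA fold was 5.42 to 7.0, that of the first Rab17 probe set 3.95 to 5.91 and that of Pam 2.04 to 3.28. The folds were 1.63 to 1.92 for the second Rab17 probe set, 1.30 to 1.59 for Rabep2 and 1.26 to 1.5 for Npc1.

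**Figure D2:**
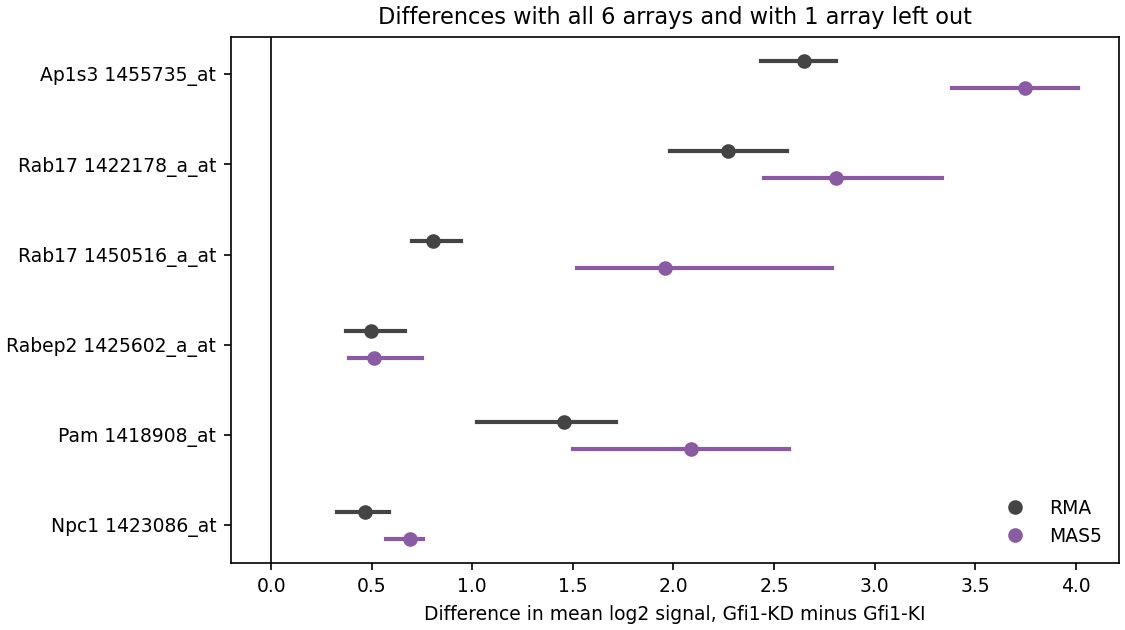
Difference in mean log2 signal, Gfi1-KD minus Gfi1-KI (points), with the range when 1 array is left out (lines), for RMA (grey) and MAS5 (purple). For Ap1s3 the RMA difference of 2.65 had a range of 2.44 to 2.81. The second Rab17 probe set, below the level filter in MAS5, had the widest range, 1.52 to 2.79.

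Other genes of membrane traffic were followed with 9 lists that hold 294 genes in all, members included. The deposited table named 27 of them (9.18%), of which 21 were higher in Gfi1-KD by RMA and 6 lower. Of all 45101 probe sets on the array, 4.41% were listed. That share is per probe set, and a gene can have several, so it is not the share of genes. A share over all genes could not be given, because unlisted probe sets carry no names. Nothing is therefore read from the counts of listed genes here or for the single lists below. Over all 1512 named genes, 57.0% were higher. Beyond the members, 22 genes were listed, 16 higher and 6 lower, and 3 of these differed by 1.5-fold or more. No share at that fold was made over all named genes, so nothing is read from the 3 either. None passed a test adjusted over all probe sets. The other 267 list genes were unnamed in the table, so their levels were not analysed here.

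The other subunits of AP-1, clathrin and the factors that recruit them had no listed gene besides Ap1s3 (1 of 22). Among the related adaptor complexes AP-2 to AP-5, 3 of 20 were listed. Ap3m2, a medium subunit of AP-3, was 1.52-fold higher in Gfi1-KD (7.38 ± 0.07 and 7.98 ± 0.31 in Gfi1-KI and Gfi1-KD). Ap4s1, the small subunit of AP-4, was 1.39-fold higher (10.06 ± 0.10 and 10.53 ± 0.06). Ap3b2, a large subunit of AP-3, had a log2 RMA difference of -0.16 and a MAS5 difference of 0.73, with a MAS5 level below the filter.

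Of the 59 Rab GTPases 6 were listed, 4 higher and 2 lower. After Rab17 the largest difference was that of Rab19, a small GTPase of the Golgi, with log2 RMA signals of 8.62, 8.18 and 8.58 in Gfi1-KI and 9.42, 9.26 and 9.36 in Gfi1-KD. The Rab19 groups were well separated, 1.85-fold apart. Rab8a, which acts in exocytosis from the trans-Golgi network, differed by 0.31 in RMA and by -0.18 in MAS5, so its direction depended on the summarization. Rab40c differed by 0.18, and Rab22a, an early endosomal Rab, and Rab25 by -0.24 and -0.29. Rab25 was below the MAS5 level filter. Among 37 Rab regulators and early endosome effectors, 5 were listed. They include, beside Rabep2, the GTPase activating protein Tbc1d10a (0.25) and, lower in Gfi1-KD by RMA, Rabif (-0.23) and Rab11fip2 (-0.38). Of the latter 3 only Rabif was above the MAS5 level filter, and the MAS5 difference of Rab11fip2 was 0.42, in the other direction.

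For the sorting machinery of endosomes, the retromer, ESCRT and sorting nexin list had 5 of 38 genes listed. The ESCRT-II subunit Vps36 differed by 0.41, Stam2, an ESCRT-0 protein, and Vps11, a tethering subunit, by 0.26 each, the retromer subunit Vps26a by 0.25 and the ESCRT-III subunit Chmp2a by -0.14. The MAS5 difference of Stam2 was -0.03. In the list of SNAREs and their disassembly factors, 4 of 37 were listed and all 4 were higher, Snap29 (1.30-fold), Stx6 (1.29-fold), Napg (1.25-fold) and Napb (1.13-fold). Napb was below the MAS5 level filter. The coat proteins COPI and COPII, which act between the endoplasmic reticulum and the Golgi, had 0 of 25 listed. Pam was the 1 listed gene of 21 for peptide processing and secretory granules.

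The cholesterol transport list had 2 of 35 genes listed, and these were both partners of lysosomal cholesterol export. Npc2 had log2 RMA signals of 9.45, 8.79 and 9.18 in Gfi1-KI and 10.14, 10.19 and 10.08 in Gfi1-KD. Its 3 Gfi1-KD arrays lay close together, and the lowest Gfi1-KI array was replicate 2. For Npc1 it was replicate 2 as well, though nearly level with replicate 1 (8.37 and 8.39). The Npc2 signal was 2.0-fold higher in Gfi1-KD (9.14 ± 0.33 and 10.14 ± 0.05), and its dimmer probe set 1.2-fold. The other 33 genes of this list were not named.

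**Figure D3:**
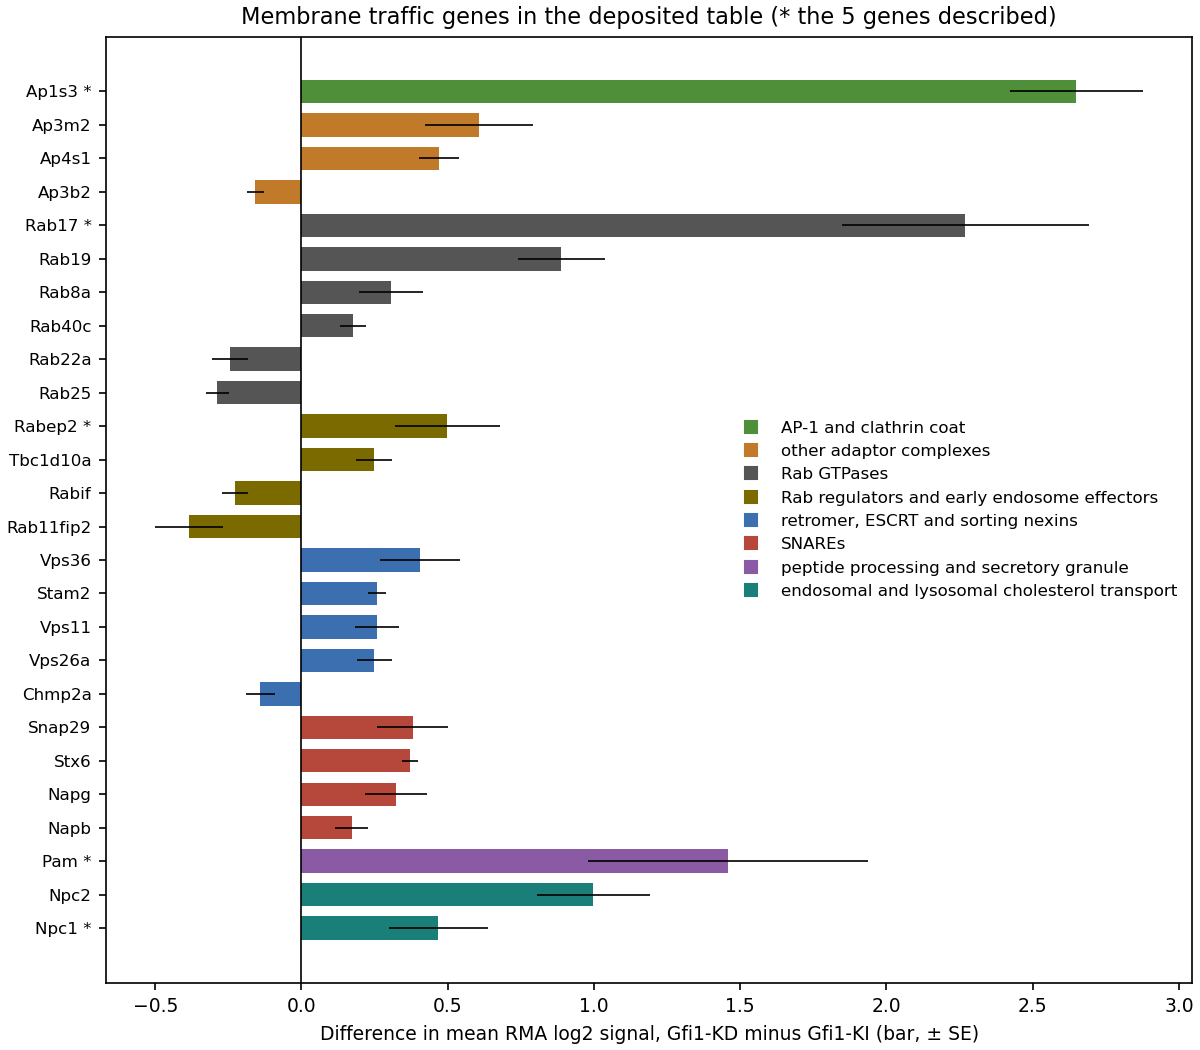
Difference in mean log2 RMA signal, Gfi1-KD minus Gfi1-KI (bars, with SE as lines), for the listed genes of the membrane traffic lists that are reported here, coloured by list. Ap1s3, Rab17 and Pam have the longest bars, and 6 genes lie below 0.

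Markers of blood cell types differed between the genotypes as well. Beside them, 4.41% of all probe sets were listed, and 57.0% of the 1512 named genes were higher in Gfi1-KD. Of 30 monocyte and macrophage markers 7 were named and all were higher in Gfi1-KD, with a summed MAS5 signal of 42408 to 64206 in Gfi1-KI and 81427 to 110518 in Gfi1-KD. Of 20 late neutrophil markers 4 were named and all were lower, with sums of 21739 to 49784 and 458 to 4960. Of 15 dendritic cell markers 2 were named and both were higher (2945 to 4158 and 5053 to 6609). The stroma and endothelium list had 1 of 13 (Pecam1, 709 to 1134 and 1541 to 2304), and the B cell list 2 of 13, with overlapping sums of 53.3 to 196 and 174 to 198. The erythroid (15) and megakaryocyte (10) lists had 0 named. No named marker was at 0 on any array. The monocyte growth factor receptor Csf1r had a signal of 10917 or more on every array. The lowest signals of Ctsb and Ctss were 13565 and 12777, so the monocyte sum mostly follows these bright genes. Among the named neutrophil markers, the granule gene Ltf had a lowest signal of 28.9 and Ceacam10 one of 8.01. These are signals of single arrays, whereas the level filter uses the mean over arrays. The named markers were selected by p on these arrays, like the members, and their part in the members' differences was not tested. The lowest monocyte sum of each group was on replicate 2. These sums were not scaled for the median signal of an array, which was the lowest of all on Gfi1-KD replicate 2 (117.0). On Gfi1-KI replicate 2 that median was the highest of its group (134.2). In RMA, Gfi1-KI replicate 2 was the lowest of its group for Pam, Rabep2, Npc1 and Ap1s3 but the highest for the first Rab17 probe set. For Npc1 (8.37 and 8.39) and Ap1s3 (6.50 and 6.53) Gfi1-KI replicates 2 and 1 were nearly level. The second Rab17 probe set was lowest on Gfi1-KI replicate 3, as was Ap1s3 in the MAS5 signals (140). Gfi1-KD replicate 2 was the lowest for Pam and Npc1 but the highest for Ap1s3.

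**Figure D4:**
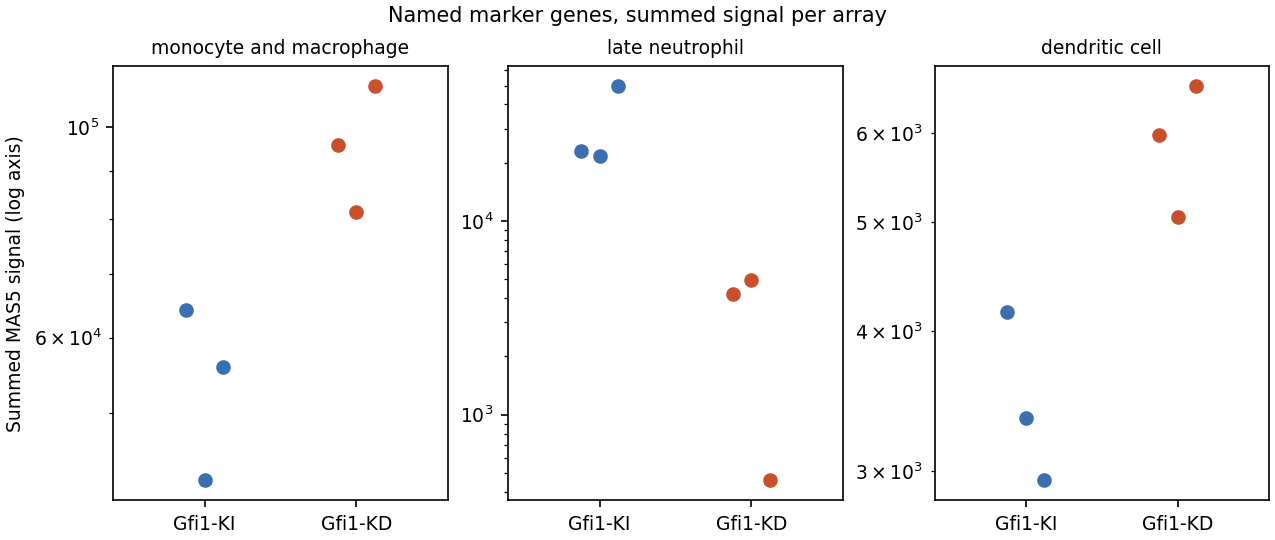
Summed MAS5 signal (log axis) of the named markers per array, for 7 monocyte and macrophage, 4 late neutrophil and 2 dendritic cell genes. The Gfi1-KD arrays (red) lie above the Gfi1-KI arrays (blue) in the first and last panels and below them in the middle panel.

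The 3 members on chromosome 1 lie within 18.2 Mb of each other, and 9.08% of the 1376 named genes with a position are on that chromosome. Between the lower coordinates of Ap1s3 and Pam, 17 other genes were listed, 8 higher and 9 lower, among 166 protein-coding genes of the span. Over the whole array 4.41% of the probe sets were listed, a share per probe set and not per gene. Those with the largest differences were Pid1, a regulator of insulin signalling (5.05-fold higher), Arl4c, an Arf-like GTPase that acts in vesicle and actin control (2.28-fold), and St8sia4, a polysialyltransferase (1.91-fold). Differences of 2-fold or more upward were found in 2 of the 17 (11.8%), against 72 of the 1376 placed genes (5.23%), members included. Neighbours were thus listed in both directions, and no test of position was made.

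**Figure D5:**
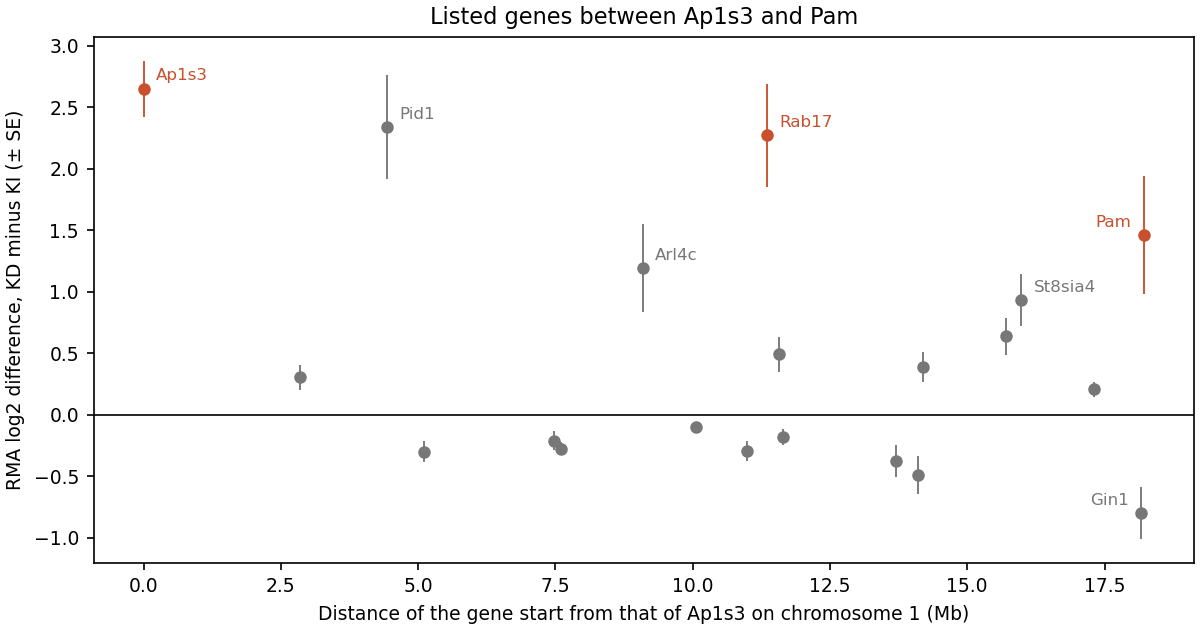
Difference in mean log2 RMA signal, Gfi1-KD minus Gfi1-KI (points, with SE as lines), against the distance of each gene's lower coordinate from that of Ap1s3, for the 20 listed genes of the span. The members (red) and Pid1 and Arl4c lie above 1, and 9 genes lie below 0.

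The named genes whose RMA signals followed those of Ap1s3 most closely over the 6 arrays were Wdr5b, a WD repeat protein (Pearson r = 0.995), Atg16l2, a relative of an autophagy protein (0.986), and Hdhd2 (0.982). After subtraction of the group means, r was 0.83 for Wdr5b, 0.91 for Atg16l2 and 0.35 for Hdhd2. For the first Rab17 probe set they were Hebp1, a heme-binding protein (0.993), Ammecr1l (0.992) and the receptor tyrosine kinase Ephb2 (0.986), with 0.96, 0.95 and 0.89 after that subtraction. All 6 had a higher mean in Gfi1-KD, but of different size, from 1.10-fold for Wdr5b to 2.29-fold for Hebp1. Such values of r before the subtraction are common among genes selected on this contrast: 12.9% of the 1507 genes compared had r above 0.9 with Ap1s3 and 15.1% with Rab17. For r after the subtraction no such share was made, and the 6 genes had been picked by r before it. Arrays of a group share their genotype, and which arrays were processed together is not given, so r is given as a description.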

How the data were processed

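RNA (200 ng an array) of 6 marrow samples was labelled and hybridised, per the labels' protocols. The value table holds linear probe set intensity values made by the authors with MAS5, as the submitters' processing notes say. A second deposited table holds log2 RMA signals, the p-value of an analysis of variance with its step-up adjustment, a kd to wt ratio and a signed fold change (a score), per the file headers. The software was not stated in the headers, and the wt group was read as Gfi1-KI, the one other group. It fills 1989 rows, each with a p-value under 0.05, and leaves 43112 blank, so RMA values and gene names exist for selected probe sets alone. Symbols come from this table (1711 probe sets with 1 symbol), positions from a RefSeq table of GRCm38.p6.

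Groups were taken from the genotype labels, and replicates were numbered in order of deposit and pair nothing. A floor of 1 was set for MAS5 signals before taking log2 (it replaced 455 of 270606). For the background, limma 3.58.1 in R 4.3.3 (lmFit, eBayes with a trend, two-sided) was fitted to the 22519 probe sets, controls left out, whose mean log2 signal was 6.95 or more (a signal of 124, the median), with Benjamini-Hochberg adjustment. The procedure was tested on simulated data. Each difference subtracts the Gfi1-KI mean and has an SE from the pooled SD, and folds are ratios of geometric means. Genes were named by rule: the members, every list gene the deposited table names (1 of them is counted but not reported here), the 3 genes between members on a chromosome with the largest RMA difference, and the 3 most alike by Pearson r to Ap1s3 and to Rab17. A gene with several probe sets is represented by that with the highest mean RMA signal, or the one with the highest r for likeness. Members, lists and rules were chosen with earlier results of these data known. The alternatives were other level filters, normalizations, added constants and fit options, the other summarization and leaving out each array. Python 3.11.15, pandas 2.3.3, numpy 2.4.6 and matplotlib 3.10.9 were used.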

Additional observations from a re-analysis of the deposited data

How the results depend on the processing

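Of 108 combinations of member probe set and alternative, the difference moved by more than 1 SD in 7, each an exchange of RMA and MAS5 signals. It was positive in all 108, which the selection largely fixes, since groups that do not overlap keep their direction when an array is left out. limma called 0 probe sets at an adjusted p under 0.05 in every setting run. Its count at an unadjusted p under 0.05, 1217, was 2311 with no level filter, and 539 to 2126 with 1 array left out, lowest without Gfi1-KD replicate 3 and highest without Gfi1-KI replicate 1. The other settings gave 1023 to 1642. With each array left out in turn, an alternative added after seeing the data, the median RMA difference of the members was 0.89 to 1.28, lowest without Gfi1-KI replicate 2. No paired analysis was possible because the labels give no replicate numbers. With 3 arrays a group, an exact permutation test cannot go below 0.1. Low signals limit Rab17, whose Gfi1-KI means lay below the level filter in MAS5.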

Other observations

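The genes that the deposited annotation places in the lysosome, where Npc1 and Npc2 act, were counted after values had been seen. They include Npc1 itself and Npc2, Vps36 and Vps11 of the traffic lists. Of 39 named lysosome genes, 35 had a higher RMA signal in Gfi1-KD and 4 a lower one (89.7% higher, beside 57.0% of the 1512 named genes). Their median log2 difference was 0.47, beside 0.15 over all named genes. Of the 39, 17 were 1.5-fold or more higher. No share at that fold was made over all named genes, so nothing is read from this count. The cysteine protease Lgmn was 3.10-fold higher (7.0 ± 0.53 in Gfi1-KI and 8.63 ± 0.47 in Gfi1-KD, SD, n = 3 each). Genes of sphingolipid breakdown were on the list too, with the activator proteins Gm2a (2.36-fold) and Psap (2.11-fold) and the ceramidase Asah1 (a log2 difference of 0.91). Those with a lower signal were Ank3 (-0.29), Lrba (-0.25), Calcrl (-0.14) and a row with a log2 difference of -0.32 whose symbol had been turned into a date. All 4 were below the level filter in MAS5, where Calcrl differed by 0.42, in the other direction. Among the genes with a higher RMA signal, Dirc2, Mtor, Abca5 and Wdr48 were below this filter too. Abca5 differed by 0.12 in RMA and by -0.48 in MAS5, so its direction depended on the summarization. Of the genes above the filter with a higher RMA signal, H2-DMa, H2-DMb2, Vps11, Tecpr1 and Znrf1 overlapped between the genotypes in MAS5. Ctss and Ctsb, 2 of the 39, are also on the monocyte and macrophage list, and H2-DMa is on the dendritic cell list. The summed signals were higher in Gfi1-KD for the markers named from these lists, 7 of 30 and 2 of 15, and the other markers were not summed. The part of such cells in these differences was not tested. All these genes were selected by p on the same arrays.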
